A study of Mus musculus with 24 samples.

Results

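The BTB zinc finger (Zbtb) family was taken as every gene whose symbol is Zbtb followed by a number and at most 1 letter. The same 40 genes met this rule in both expression tables, of 23177 rows in the table of the Zbtb16 experiment and 21688 rows in that of the Sox3 experiment. They comprise Zbtb16 itself and 39 paralogs. Antisense and neighbouring transcripts with longer names, such as Zbtb8os, were not members. BTB zinc finger genes known by other names were examined separately.

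RNA-seq had been done on spermatogonia (SPG) of postnatal day 7 (P7) mice on the C57BL/6J background, and each library came from a pool of testes of 3 mice. THY1+ undifferentiated SPG (uSPG) and KIT+ differentiating SPG (dSPG) were enriched with magnetic beads. The Zbtb16 experiment compared WT mice with mice homozygous for luxoid, a spontaneous nonsense allele, Zbtb16 lu/lu (null), and the Sox3 experiment compared WT mice with a conditional knockout (cKO) made by crossing floxed Sox3 with Ddx4-Cre, a driver active in germ cells. There were 3 libraries for each genotype and fraction, 12 in each experiment, and nothing in the labels says which mice gave both fractions.

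ZBTB proteins join an amino-terminal BTB domain, through which they pair with themselves or each other and recruit corepressors such as NCOR and SIN3A with histone deacetylases, to carboxy-terminal C2H2 zinc fingers that bind DNA. ZBTB16, also named PLZF, is needed for the long-term maintenance of spermatogonial stem cells and marks uSPG. Other members are known mainly from blood, nerve and muscle cells, and a few read methylated DNA, so the question asked here was which of them P7 SPG express and whether any is higher when Zbtb16 is lost.

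Values are FPKM, in which reads per gene are divided by its length and by library size. A gene was called when limma gave a Benjamini-Hochberg adjusted p of at most 0.05 over all genes tested and a change of at least 1.5-fold. Genes were tested when their mean over the 12 libraries was at least 0.1 FPKM, and log2 fold changes are on the log2(FPKM + 0.1) scale, which understates changes of low genes. All 40 members passed that filter in both tables, of 22374 and 21212 genes tested.

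The sorting markers were checked first. In the Zbtb16 experiment, Thy1 was 3.29 to 4.67 FPKM in the 6 libraries labelled THY1+ and 0.156 to 0.666 in the 6 labelled KIT+. In the Sox3 experiment, the cKO libraries followed their labels, but those of WT did not. WT libraries with the THY1+ label held only 0.213 to 0.254 FPKM of Thy1 and 45.6 to 80.1 of Kit, and WT libraries with the KIT+ label held 3.59 to 4.06 FPKM of Thy1 and 13.0 to 18.8 of Kit. The WT libraries of that experiment thus go against their fraction labels. They are named here by their labels, they entered no comparison of fractions, and the cKO was compared with WT only as the mean over both fractions, a value that does not depend on which WT group is which. Sox3 was 6.28 to 24.4 FPKM in the 6 WT libraries and at most 0.0820 FPKM in the 6 cKO libraries. Depth, estimated from the steps between low FPKM values, was 26.0 to 35.2 M reads in the Zbtb16 experiment, 28.3 to 31.9 M in replicate 1 of the Sox3 experiment and 11.0 to 14.9 M in its replicates 2 and 3.

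Non-germ cell RNA also moved with the fractions. The summed FPKM of 9 macrophage markers was 798 to 910 in WT THY1+ and 6.80 to 8.71 in WT KIT+ libraries, and that of 6 Leydig cell markers was 83.1 to 119 and 1215 to 2272. Their part in the differences between fractions given below was not tested. In such bulk samples, fewer cells of a type and less RNA per cell cannot be told apart.

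In the GENCODE M21 annotation of GRCm38 (mm10) all 40 members are protein coding, on 15 chromosomes. Zbtb16 lies on the minus strand at chr9:48654297-48836222. There are 8 members within 100000 bases of another member, in the pairs Zbtb43 and Zbtb34, Zbtb6 and Zbtb26, Zbtb1 and Zbtb25, and Zbtb8a and Zbtb8b. Zbtb6 and Zbtb26 share 449 exonic bases on the same strand, so their values are not fully separate. Exons of 7 members, this pair included, overlap another gene on the same strand. The others are Zbtb9 (Ggnbp1), Zbtb22 (Tapbp), Zbtb21 (C2cd2), Zbtb11 (Gm28037) and Zbtb20 (Mir568). How reads in such shared bases were counted is not given, so these values are less certain too. Exons of 14 members overlap genes on the opposite strand. They are Zbtb5, Zbtb7b, Zbtb8a, Zbtb9, Zbtb11, Zbtb12, Zbtb14, Zbtb17, Zbtb18, Zbtb20, Zbtb22, Zbtb33, Zbtb37 and Zbtb39. Among those called in a comparison below, Zbtb20 overlaps Gm9968, Zbtb39 overlaps Gpr182, Zbtb33 overlaps Tmem255a and Zbtb12 overlaps C2. How strand was used in counting is not given in the sources used here, so the values of those 14 members are less certain.

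RefSeq promoter windows (GRCm38.p6, 250 bases before to 50 bases after a transcript start, read in the direction of the gene) were listed for 35 members, in 48 windows. None was listed for Zbtb16, Zbtb7c, Zbtb10, Zbtb40 or Zbtb48. The windows of 4 members are printed because the results below turn on them. Zbtb43 was, after Zbtb16, the member most strongly lower in KIT+ than in THY1+ libraries, and Zbtb41 was higher in KIT+ libraries. Zbtb26 had the highest positive change in null THY1+ libraries, and Zbtb32 was lower in the cKO. Their positions are chr2:33468483-33468782 (minus strand), chr1:139422133-139422432 (plus strand), chr2:37443123-37443422 (minus strand) and chr7:30598860-30599159 (minus strand, the first of 2 windows). Capitals mark the GC box GGGCGG, the CCAAT box and the TATA box TATAAA on either strand, and no printed matches overlap each other.
Zbtb43: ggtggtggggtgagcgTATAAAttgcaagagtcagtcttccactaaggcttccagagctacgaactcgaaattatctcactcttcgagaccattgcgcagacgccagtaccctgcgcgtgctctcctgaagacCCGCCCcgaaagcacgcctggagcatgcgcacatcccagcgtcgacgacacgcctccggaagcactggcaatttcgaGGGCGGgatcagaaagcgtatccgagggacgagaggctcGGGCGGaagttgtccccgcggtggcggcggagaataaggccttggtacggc
Zbtb41: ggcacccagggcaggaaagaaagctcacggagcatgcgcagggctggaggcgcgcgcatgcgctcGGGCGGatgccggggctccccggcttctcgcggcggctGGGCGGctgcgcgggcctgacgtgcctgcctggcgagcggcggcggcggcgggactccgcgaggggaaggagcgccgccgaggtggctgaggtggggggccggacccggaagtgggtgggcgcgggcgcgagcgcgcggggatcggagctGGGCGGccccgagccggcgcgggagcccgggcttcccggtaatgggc
Zbtb26: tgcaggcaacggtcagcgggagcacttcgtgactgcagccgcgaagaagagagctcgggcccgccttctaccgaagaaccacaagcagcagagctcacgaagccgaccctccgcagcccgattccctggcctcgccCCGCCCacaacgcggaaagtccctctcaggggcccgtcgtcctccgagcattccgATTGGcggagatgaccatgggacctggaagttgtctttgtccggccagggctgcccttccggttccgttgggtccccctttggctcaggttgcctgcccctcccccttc
Zbtb32: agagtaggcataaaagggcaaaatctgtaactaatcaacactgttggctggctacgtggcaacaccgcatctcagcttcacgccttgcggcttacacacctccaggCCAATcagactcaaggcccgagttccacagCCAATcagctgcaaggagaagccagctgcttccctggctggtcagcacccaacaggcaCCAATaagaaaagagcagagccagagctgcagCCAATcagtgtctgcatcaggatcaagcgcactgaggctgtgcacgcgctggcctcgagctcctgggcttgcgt

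The family's windows were rich in CpG. The median was 25 CpG per window for the 48 member windows and 7.0 for all 32851 windows listed, and 40 of the 48 were above the latter value. GGGCGG occurred in 66.7% of member windows and in 35.66% of all windows, while CCAAT occurred in 31.2% and 37.41%, and TATAAA in 10.4% and 13.62%. The TATAAA windows belong to only 2 of the 35 members, Zbtb18 and Zbtb43. Windows of the same gene can overlap, so these shares do not count genes. The E box CACGTG was found in 12.5% of member windows, which belong to 5 members, and in 7.15% of all windows. TCCTGCNA, a sequence bound by Kaiso (ZBTB33), was in 8.3% of member windows, which belong to Zbtb18 and Zbtb37, and in 4.96% of all. The printed Zbtb32 window holds 4 CCAAT boxes, no GC box and 10 CpG, against 45 CpG in that of Zbtb41 and 29 in that of Zbtb43. The second Zbtb32 window, not printed, holds no CCAAT box, no GC box and 3 CpG. These matches describe letters in a window and not sites shown to be bound.

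Every member was detected. The lowest value of any member was 0.367 FPKM in the 12 libraries of the Zbtb16 experiment and 0.321 in the 12 of the Sox3 experiment. In the first, 37 of the 40 members (92.5%) exceeded 1 FPKM in every library, against 60.1% of all rows, and in the second 38 of 40 (95%) against 62.1%. In WT THY1+ libraries 10 members had a mean of 10 FPKM or more, 19 lay between 5 and 10, 9 between 1 and 5, and Zbtb42 and Zbtb7c lay under 1. The median of the 40 means was 7.60 FPKM, and that of the 16573 rows with a mean of at least 1 FPKM was 7.30. All members were thus detected in every library, at levels spread over the range of expressed genes.

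**Figure D1:**
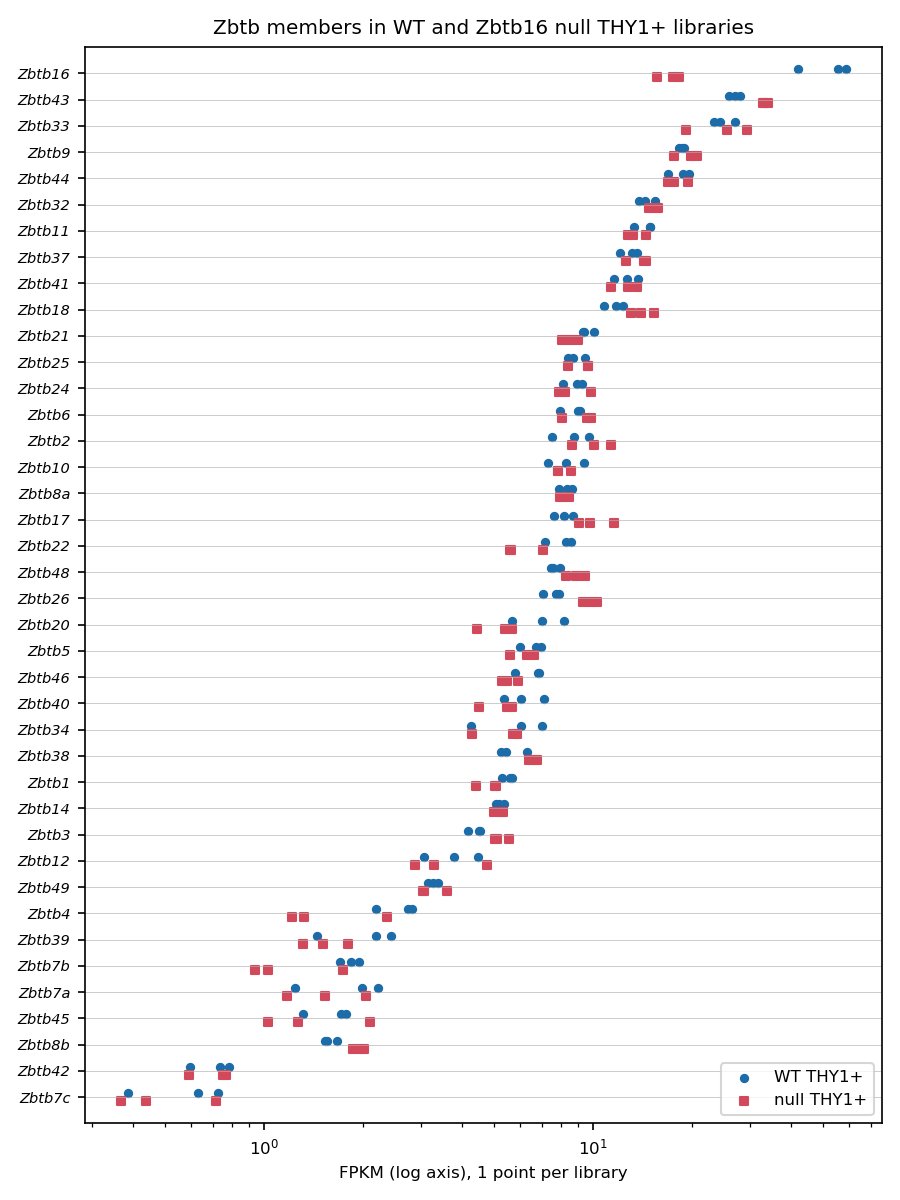
FPKM of the 40 members in the 3 WT THY1+ (circles) and 3 Zbtb16 null THY1+ (squares) libraries, on a log axis and ordered by the WT mean. Zbtb16 leads the WT libraries at 42.0 to 58.7 FPKM and drops to 15.6 to 18.2 in null libraries, below Zbtb43 and Zbtb33, while the null libraries of Zbtb43 and Zbtb26 all lie to the right of WT.

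The 5 members with the highest mean in WT THY1+ were Zbtb16, Zbtb43, Zbtb33, Zbtb9 and Zbtb44, and these 5 made up 37.9% of the summed FPKM of the family. Zbtb16 was 55.7, 58.7 and 42.0 FPKM in the 3 libraries. Zbtb43, a factor known to remodel Z-DNA in prospermatogonia, was 28.0, 27.0 and 25.9 FPKM. Zbtb33, or Kaiso, a reader of methylated CpG, was 27.0, 24.3 and 23.3 FPKM. Zbtb16 was higher than either in each library, by 1.93 times the mean of Zbtb43, whereas Zbtb43 and Zbtb33 overlapped. Zbtb9 (18.6, 18.9 and 18.2 FPKM) and Zbtb44 (19.6, 18.7 and 17.0 FPKM) overlapped each other as well and stood below Zbtb33 in every library.

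Outside WT THY1+ these members varied as follows. In WT KIT+ libraries Zbtb43 was 16.6, 19.8 and 18.8 FPKM, below all WT THY1+ libraries. Zbtb33 was 22.6, 19.5 and 16.4 FPKM in WT KIT+, 29.5, 19.2 and 25.6 in null THY1+ and 17.99, 14.1 and 15.6 in null KIT+. Zbtb9 was 16.3, 16.6 and 18.04 FPKM in WT KIT+, 19.8, 20.7 and 17.7 in null THY1+ and 15.2, 14.97 and 13.7 in null KIT+. Zbtb44 was 12.7, 15.2 and 13.2 FPKM in WT KIT+, 19.4, 17.6 and 16.9 in null THY1+ and 13.3, 13.2 and 13.4 in null KIT+. Null and WT overlapped for Zbtb33 and Zbtb44 in both fractions and for Zbtb9 in THY1+, while in KIT+ all null libraries of Zbtb9 lay below WT (log2 fold change -0.21, limma adjusted p = 0.243). In the Sox3 experiment Zbtb43 was 18.8, 16.6 and 20.05 FPKM in WT labelled THY1+ and 24.1, 26.6 and 28.7 in WT labelled KIT+. Zbtb33 was 11.99, 12.8 and 13.4 FPKM in WT labelled THY1+, 15.3, 15.2 and 23.3 in WT labelled KIT+, 17.8, 21.8 and 21.4 in cKO THY1+ and 9.92, 21.7 and 13.6 in cKO KIT+. Zbtb9 was 17.7, 18.04 and 21.3 FPKM in WT labelled THY1+, 19.5, 20.3 and 22.3 in WT labelled KIT+, 18.1, 21.6 and 21.4 in cKO THY1+ and 15.7, 18.1 and 17.5 in cKO KIT+. Replicate 2 of cKO KIT+ was the highest of its group for both. Zbtb44 was 13.1, 10.8 and 14.5 FPKM in WT labelled THY1+, 15.3, 15.8 and 20.1 in WT labelled KIT+, 16.2, 18.9 and 18.8 in cKO THY1+ and 12.1, 19.0 and 14.04 in cKO KIT+, again with replicate 2 the highest in cKO KIT+.

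The order of the leading members differed between groups. Zbtb43 led in null THY1+ libraries, with a mean of 33.3 FPKM against 17.1 for Zbtb16. Zbtb33 led in WT KIT+ libraries at 19.5 ± 3.09 FPKM (SD, n = 3), but Zbtb41 at 18.7 ± 1.62, Zbtb43 at 18.4 ± 1.67 and Zbtb16 at 18.2 ± 4.39 did not differ from it beyond their spread. Zbtb41 led in null KIT+ and in cKO KIT+ libraries, with means of 18.1 and 19.5 FPKM. The median coefficient of variation of a member over the 3 libraries of a group ran from 7.29% to 11.1%, and the highest value of any member was 50.4%, for Zbtb7c in WT KIT+.

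Loss of Zbtb16 function was first checked on Zbtb16 itself. In THY1+ libraries it was 17.5, 18.2 and 15.6 FPKM in the null against 55.7, 58.7 and 42.0 in WT, and in KIT+ libraries 6.69, 6.59 and 6.11 against 14.4, 23.0 and 17.1. Null and WT libraries did not overlap in either fraction. Zbtb16 fell by 1.59 on the log2 scale in THY1+ (SE 0.17, limma adjusted p = 0.00068) and by 1.45 in KIT+ (SE 0.17, adjusted p = 0.00502). In KIT+ the call rested on the spread shared by all 4 groups: with only the 6 KIT+ libraries in the fit the adjusted p was 0.114. The share of Zbtb16 in the summed FPKM of the family was 13.97% ± 1.80 in WT THY1+ and 4.95% ± 0.299 in null THY1+ (SD, n = 3). Reads still mapped to the gene in the null, and FPKM does not show whether protein is made.

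No paralog was called higher in null THY1+ libraries. Of the 39 paralogs, 0 were called in THY1+ in either direction by limma. The background was 3.98% of all genes tested, 2.71% higher and 1.26% lower. An unadjusted p under 0.05 was found by limma for 8 of the 39 paralogs and for 5325 of the 22374 genes tested. The median log2 fold change was -0.02 over the 39 paralogs and -0.03 over all genes tested. Groups did not overlap for 8 members that were higher in all null libraries and 5, Zbtb16 among them, that were lower, with backgrounds of 15.5% and 14.1%. The upper end of the 95% interval of the change was under 1.5-fold for 37 of the 39 paralogs, beside 15998 of the 22374 genes tested. The highest upper end among the paralogs, that of Zbtb7c, was 1.63-fold.

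In the fit as set out above, Zbtb26 was the only paralog past the adjusted p alone. It was 10.3, 9.34 and 9.87 FPKM in null THY1+ libraries and 7.72, 7.03 and 7.89 in WT. All null libraries lay above all WT libraries, by 1.30-fold (0.38 on the log2 scale, SE 0.10, limma adjusted p = 0.0440), beside backgrounds of 5.3% of genes past the adjusted p and 3.72% past it and higher. Zbtb6, which shares exons with it, was 9.86, 8.05 and 9.61 FPKM against 8.97, 7.95 and 9.12, a log2 fold change of 0.08 with overlapping groups. This depended on the libraries used. When each of the 12 libraries was left out in turn, Zbtb26 missed the adjusted p in 10 fits and passed it in 2, those without replicate 1 or 2 of null KIT+, with log2 fold changes of 0.33 to 0.41 and adjusted p of 0.0397 to 0.175. It was past the threshold with the pseudocount of 1 and with the replicate block, but not with the 6 THY1+ libraries alone or after median scaling.

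Zbtb43, the most abundant paralog, had 33.0, 32.8 and 34.0 FPKM in null THY1+ against 28.0, 27.0 and 25.9 in WT. The groups did not overlap, with a change of 0.30 on the log2 scale (SE 0.08, limma adjusted p = 0.0540). Zbtb17, or MIZ1, a partner of MYC, was 9.81, 11.6 and 9.09 FPKM against 8.67, 8.15 and 7.59, a log2 fold change of 0.31 (adjusted p = 0.102). Both were higher in each null library and neither reached 1.5-fold. Which paralogs passed the adjusted p depended on the settings. Zbtb43 passed it with the pseudocount of 1 and without replicate 1 of WT KIT+. After median scaling Zbtb43 and Zbtb17 both passed, while Zbtb26 did not. The shares of all genes past it in these fits are not given here. The other members with all null libraries higher were Zbtb8b, Zbtb18, Zbtb3, Zbtb38 and Zbtb48, with log2 fold changes of 0.21 to 0.28.

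At the lower end, Zbtb4 and Zbtb7b had changes past 1.5-fold or close to it without a call. Zbtb4, a methyl-CpG reader, was 1.32, 2.37 and 1.22 FPKM in null THY1+ against 2.81, 2.73 and 2.19 in WT (log2 fold change -0.68, adjusted p = 0.174). Zbtb7b, or ThPOK, which directs CD4 T cell fate, was 0.940, 1.73 and 1.026 FPKM against 1.94, 1.84 and 1.69 (log2 fold change -0.57, adjusted p = 0.140). In both, replicate 2 of the null reached the WT range and the other null libraries lay below it. Same-numbered libraries of these groups deviated together, and with the replicate number as a block Zbtb4 was called lower (adjusted p = 0.0304), making 2 members called instead of 1. Without replicate 2 of null THY1+, Zbtb7b was called lower (log2 fold change -0.83, adjusted p = 0.0343). With the block the adjusted p was passed by Zbtb26, Zbtb17, Zbtb43 and Zbtb18 on the higher side and by Zbtb16, Zbtb4, Zbtb7b, Zbtb20 and Zbtb22 on the lower side. The share of all genes that passed with the block is not given here, and the backgrounds above belong to the fit without it. Whether the family differs from other genes in that fit cannot be read from these members. Summed markers of T cells were also lower in null THY1+ (10.4 to 11.8 FPKM over 9 genes) than in WT THY1+ (14.5 to 16.5), as were those of macrophages (371 to 712 against 798 to 910 over 9 genes), with 0 of 8 T cell and 1 of 9 macrophage markers called. Values were below 0 for 6 of 6 Leydig cell markers (median log2 fold change -0.84, all 6 at an unadjusted p under 0.05), 8 of 9 Sertoli (-0.58), 7 of 8 peritubular and stromal (-0.58) and 5 of 6 endothelial markers (-0.50), and none of these was called by limma. They were above 0 for 6 of 6 markers of all germ cells (0.32), of which 1 was called higher. The part of these cell types in the lower and the higher values of the members was not tested.

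**Figure D2:**
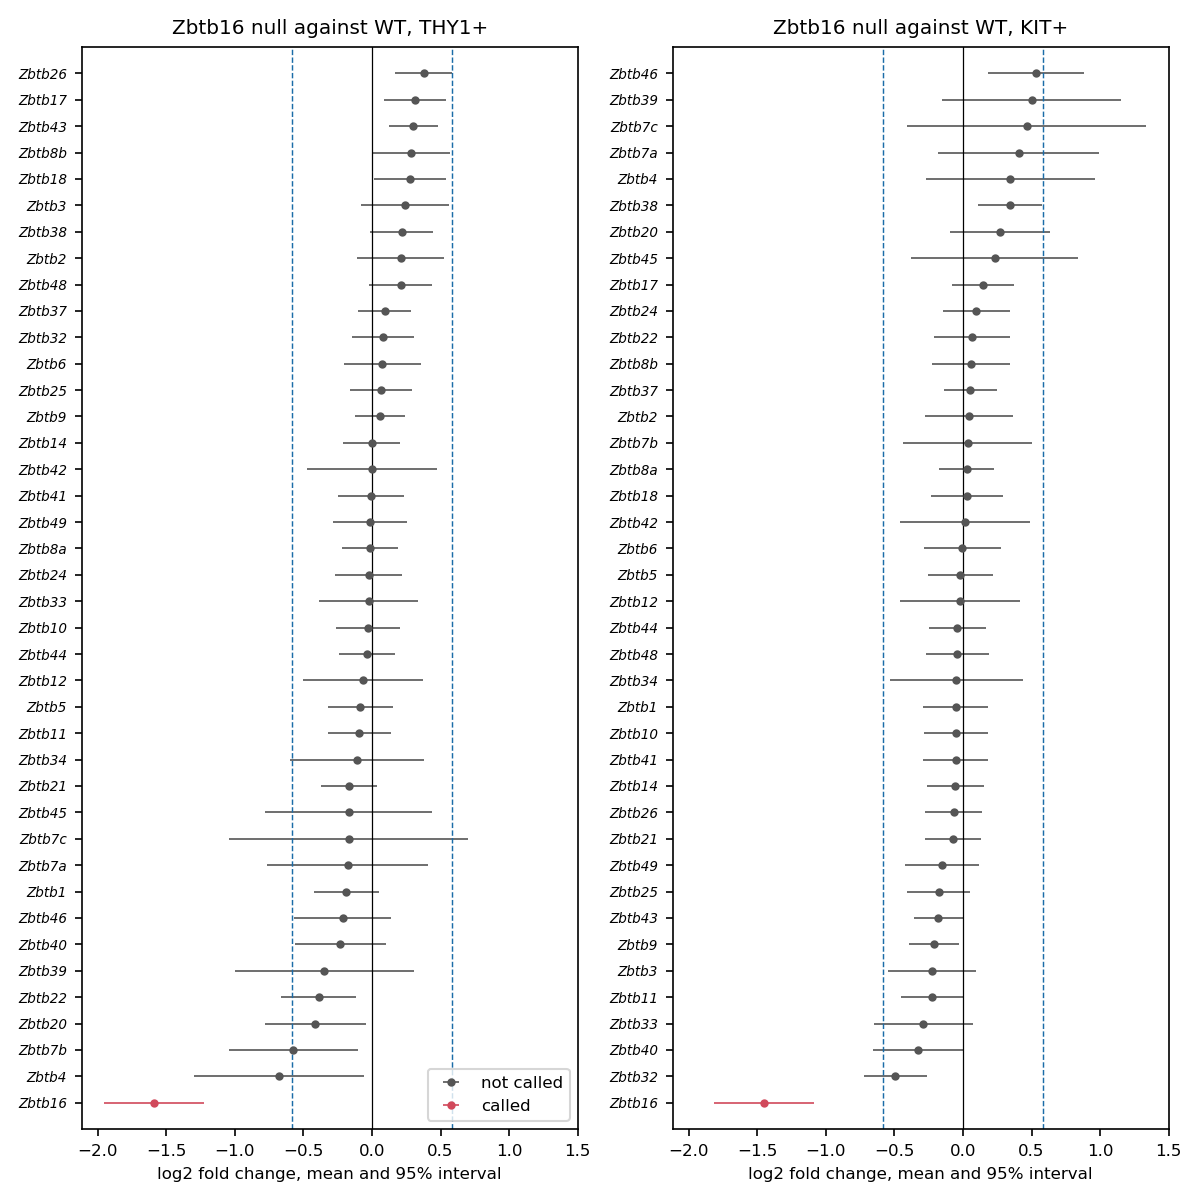
Log2 fold change of each member between Zbtb16 null and WT libraries in THY1+ (left) and KIT+ (right), with 95% intervals from limma (n = 3 per group) and dashed lines at 1.5-fold. Zbtb16 alone was called, at -1.59 and -1.45, and the paralogs with the highest values were Zbtb26 at 0.38 in THY1+ and Zbtb46 at 0.53 in KIT+.

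In KIT+ libraries the only call was again Zbtb16, with 0 of 39 paralogs called by limma beside a background of 0.259%. An unadjusted p under 0.05 was found for 5 of the 39 and for 3863 of the 22374 genes tested. Zbtb46, which marks classical dendritic cells in blood lineages, was 6.68, 8.83 and 8.61 FPKM in null KIT+ and 4.38, 6.73 and 5.60 in WT, a log2 fold change of 0.53 (adjusted p = 0.178). Its groups overlapped by 1 pair of libraries. Dendritic cell markers, 4 genes, summed to 0.623 to 0.859 FPKM in null KIT+ and 0.520 to 0.883 in WT KIT+, at or under 1 FPKM for each gene. Other lists leaned to one side. Values were above 0 for 6 of 6 Leydig (median log2 fold change 0.60), 6 of 6 endothelial (0.58), 7 of 8 peritubular and stromal (0.69) and 7 of 9 Sertoli cell markers (0.34), and below 0 for 5 of 6 markers of all germ cells (-0.20). None of these was called by limma, with 3, 2, 3, 2 and 2 at an unadjusted p under 0.05, and their part in the values of the members was not tested. Zbtb32, a repressor known from lymphocytes, was 13.7, 10.9 and 10.6 FPKM in null KIT+ and 17.6, 15.8 and 16.0 in WT. The groups did not overlap (log2 fold change -0.49, unadjusted p = 0.000548 and adjusted p = 0.114, limma).

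Zbtb38, a methyl-CpG reader, was 5.72, 6.15 and 6.51 FPKM in null KIT+ against 4.48, 4.91 and 5.02 in WT, a log2 fold change of 0.34 (adjusted p = 0.181). Among the 40 members 2 were higher and 4 lower without overlap, against backgrounds of 8.73% and 8.77%. The upper 95% bound lay under 1.5-fold for 32 of 39 paralogs, beside 14372 of the 22374 genes tested. Among the paralogs the widest interval, that of Zbtb7c, reached 2.53-fold, so changes of up to that size lie within its interval. With the replicate block, which the deviations of these groups allow, Zbtb46 (adjusted p = 0.0468) and Zbtb32 (adjusted p = 0.0292) passed the adjusted p but stayed under 1.5-fold. Without replicate 1 of null KIT+, Zbtb32 was called lower (log2 fold change -0.61, adjusted p = 0.0339).

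The effect of the null was also averaged over the fractions, where Zbtb16 was the only member called (log2 fold change -1.52, SE 0.12, adjusted p = 4.6e-05), beside 2.3% of all genes. An unadjusted p under 0.05 was found by limma for 5 of the 39 paralogs and for 4072 of the 22374 genes tested. The next members were Zbtb38 at 0.28 (adjusted p = 0.0628) and Zbtb40 at -0.28 (adjusted p = 0.189). The 95% interval of the averaged change lay within 1.5-fold either way for 36 of the 40 members, beside 15122 of the 22374 genes tested. With the replicate block, Zbtb38 (limma adjusted p = 0.0279), Zbtb17 (0.0280) and Zbtb18 (0.0452) passed the adjusted p on the higher side. On the lower side Zbtb40 (0.0198) passed it beside Zbtb16. None of these paralogs reached 1.5-fold. The share of all genes that passed with the block is not given here. Summed over the 39 paralogs, WT THY1+ libraries held 331, 320 and 308 FPKM and null THY1+ libraries 337, 328 and 320. Null and WT overlapped, with a ratio of means of 1.027 (exact permutation test, two-sided, p = 0.4, where 0.1 is the smallest p that 3 against 3 allows). In KIT+ the sums were 296, 303 and 291 FPKM in WT and 297, 283 and 280 in the null, a ratio of 0.966 (exact permutation p = 0.3). Paired by replicate number, a test added after the data were seen, the null sum was higher in 3 of 3 pairs in THY1+ (exact permutation by sign flips, two-sided, p = 0.25) and in 1 of 3 in KIT+ (exact permutation p = 0.5). The smallest p that 3 pairs allow is 0.25.

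Whether the null effect differed between fractions was tested by the interaction. By limma 0 of 40 members were called, beside 0.0313% of all genes. An unadjusted p under 0.05 was found for 9 members and for 5014 of the 22374 genes tested. The lowest adjusted p values were those of Zbtb43 (log2 difference of -0.48, adjusted p = 0.0938) and Zbtb32 (-0.57, adjusted p = 0.0939), and Zbtb26 was at -0.45 (adjusted p = 0.111). For all 3 the null change was positive in THY1+ and negative in KIT+. Zbtb46 (0.75), Zbtb20 (0.68) and Zbtb4 (1.02) had the opposite order, with adjusted p of 0.114 to 0.168. Without replicate 1 of null KIT+, Zbtb32 was called (-0.69, adjusted p = 0.0405). Limma with the replicate block put 4 members past the adjusted p on the higher side, Zbtb4, Zbtb46, Zbtb20 and Zbtb22, the first 3 as calls. On the lower side 3 passed without a call, Zbtb43 (adjusted p = 0.0198), Zbtb26 (0.0229) and Zbtb32 (0.0229). The groups of the interaction are not all paired by the check of replicate numbers given below.

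Fractions were compared next, in WT and null libraries of the Zbtb16 experiment and in cKO libraries of the Sox3 experiment. The null and WT fraction comparisons use the same libraries as the genotype comparisons above. In WT, 1 of 40 members was called between KIT+ and THY1+, beside a background of 21.2% of all genes tested (7.21% higher and 14% lower). This was Zbtb16, lower by 1.53 on the log2 scale (SE 0.17, adjusted p = 5.29e-05). The adjusted p alone was passed by 2 members that were higher in KIT+, Zbtb41 and Zbtb8b, and by 6 that were lower, Zbtb16, Zbtb43, Zbtb20, Zbtb44, Zbtb21 and Zbtb37, together 8 of 40 beside 28.9% of all genes (11.6% higher and 17.4% lower). Libraries did not overlap for 8 members all higher and 11 all lower, beside 18.5% and 24.1% of all genes.

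The count in WT was sensitive to single libraries and to scaling. It was 2 without replicate 2 of WT THY1+ (Zbtb12 added), 4 without replicate 3 of WT THY1+ (Zbtb20, Zbtb34 and Zbtb41 added) and 4 without replicate 2 of WT KIT+ (Zbtb20, Zbtb41 and Zbtb43 added). The log2 fold changes of these added members were then between 0.62 and 0.69 when higher and between -0.67 and -0.61 when lower. With libraries scaled to the same median it was also 4, 3 of them higher in KIT+. Zbtb16 was called each time.

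In null libraries 6 of 40 members were called, beside 29.2% of all genes. Zbtb7c and Zbtb12 were higher in KIT+ (13.2% of all genes), and Zbtb16, Zbtb43, Zbtb3 and Zbtb33 were lower (16%). The adjusted p alone was passed by 5 members that were higher and 11 that were lower, beside 17.4% and 22.1%. Libraries did not overlap for 8 members all higher and 14 all lower, beside 21.3% and 27.3%. Zbtb43 fell by 1.033 on the log2 scale (SE 0.08, adjusted p = 4.27e-06), from 33.0, 32.8 and 34.0 FPKM in null THY1+ to 15.9, 15.9 and 16.8 in null KIT+. Zbtb16 fell by 1.39 (adjusted p = 7.31e-05), Zbtb3 by 0.67 (adjusted p = 0.0035) and Zbtb33 by 0.62 (adjusted p = 0.0108). Zbtb12 rose by a log2 value of 0.61 (adjusted p = 0.0319). Zbtb7c rose by 1.15 (adjusted p = 0.0387) on low values, 0.435, 0.714 and 0.367 FPKM in THY1+ and 0.676, 1.78 and 1.43 in KIT+, and its groups overlapped.

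The calls of Zbtb43 and Zbtb16 in the null held without any 1 library. The call of Zbtb7c was lost (adjusted p of 0.0501 to 0.141) without replicate 2 of WT THY1+, replicate 3 of WT KIT+, replicate 1 or 3 of null THY1+, or replicate 2 or 3 of null KIT+. That of Zbtb12 was lost without replicate 1 or 3 of null THY1+ or replicate 1 or 2 of null KIT+ (adjusted p of 0.0692 to 0.128). Zbtb33 was not called without replicate 1 of null THY1+ (adjusted p = 0.0504) or replicate 2 of null KIT+ (log2 fold change -0.54), nor Zbtb3 without replicate 3 of null KIT+ (-0.54). The count was 3 without replicate 1 of null THY1+ or replicate 2 of null KIT+, and 9 without replicate 2 of null THY1+, when Zbtb4, Zbtb7a and Zbtb7b were called higher as well. Same-numbered null libraries deviated together, and with the replicate block Zbtb4 and Zbtb7a were also called higher (adjusted p of 0.00706 and 0.0035).

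In cKO libraries 4 of 40 members were called, 2 higher and 2 lower, beside 22.7% of all genes (10.5% and 12.2%). Zbtb7c was higher in KIT+ (1.86, 1.13 and 1.61 FPKM against 0.473, 0.653 and 0.321 in THY1+, 2.83-fold, adjusted p = 0.00151), as was Zbtb41 (20.1, 20.1 and 18.2 FPKM against 11.1, 12.6 and 11.3, 0.73 on the log2 scale with an SE of 0.10, adjusted p = 0.000298). Zbtb43 was lower, at 13.7, 16.5 and 15.9 FPKM in KIT+ against 25.4, 29.2 and 27.4 in THY1+ (-0.83, SE 0.11, adjusted p = 0.000214). Zbtb16 was lower too, at 9.79, 15.7 and 15.9 against 40.2, 51.0 and 48.7 FPKM (-1.78, SE 0.29, adjusted p = 0.000783). For none of these 4 did the libraries overlap, as for 8 members all higher and 7 all lower in all, beside 21.7% and 22.8% of all genes. The adjusted p was also passed by Zbtb12 (0.53) and Zbtb25 (-0.32), making 3 members in each direction, beside 14.3% and 15%, or 29.3% together. Without replicate 2 of cKO KIT+, Zbtb33, Zbtb34 and Zbtb40 were called lower as well, making 7.

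**Figure D3:**
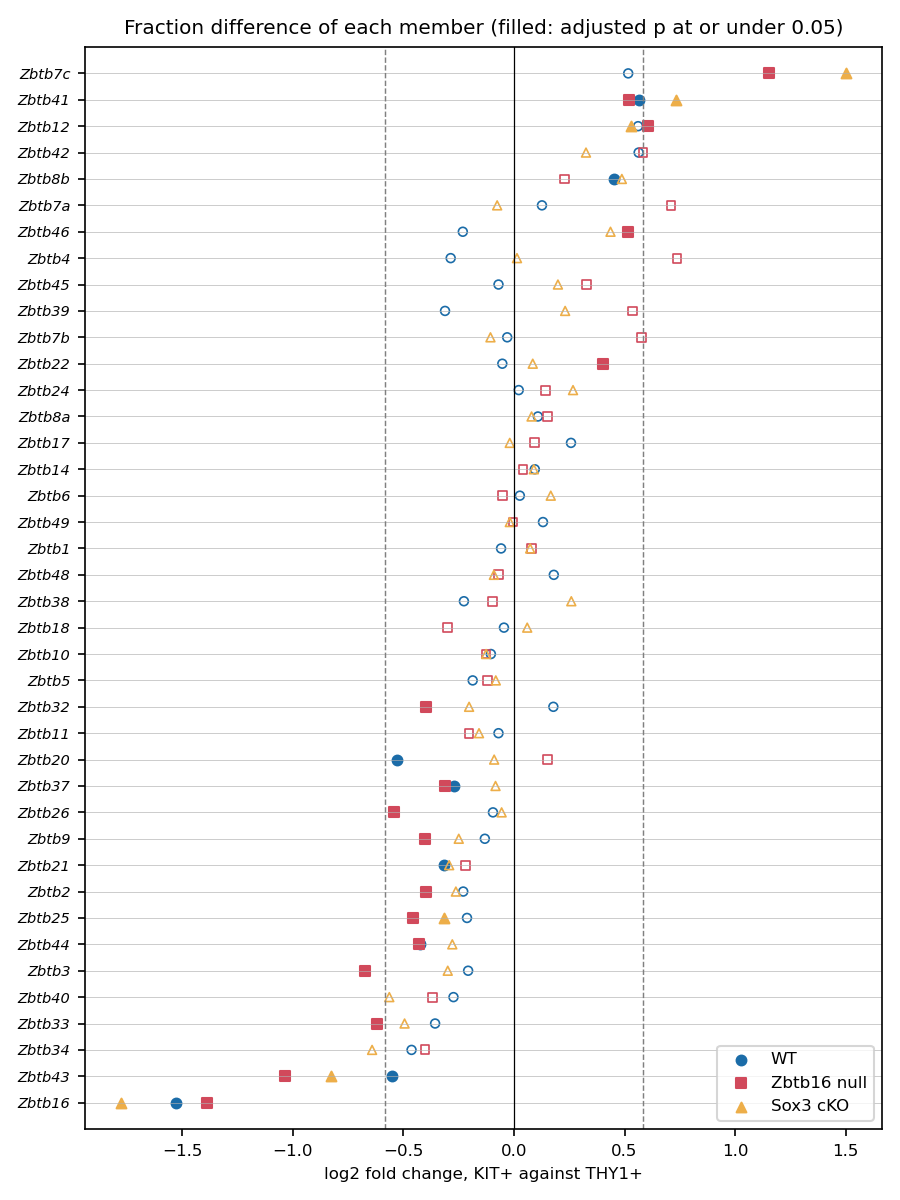
Log2 fold change between KIT+ and THY1+ libraries for each member in WT (circles) and Zbtb16 null (squares) libraries of the Zbtb16 experiment and in Sox3 cKO libraries (triangles), ordered by the mean of the 3 and filled where the adjusted p was at or under 0.05. Zbtb16 and Zbtb43 are filled at the lower end and Zbtb41 at the higher end in all 3 comparisons.

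Across the 3 fraction comparisons, Zbtb16, Zbtb43 and Zbtb41 passed the adjusted p in each, 5 members passed in 2, 11 in 1 and 21 in none. Only Zbtb16 was called at 1.5-fold in all 3. Zbtb41 was 12.7, 11.6 and 13.7 FPKM in WT THY1+ and 20.2, 17.0 and 19.1 in WT KIT+, a log2 fold change of 0.56, and 0.52 in the null. Signs were shared by all 3 comparisons for 24 members, 16 lower and 8 higher in KIT+. These counts across comparisons were made for the members only and not for all genes. They therefore do not show whether the family differs from other genes. The cKO comparison shares no library with the other 2. The median log2 fold change of the 40 members was -0.08 in WT, -0.06 in the null and -0.07 in the cKO, against -0.03, -0.05 and -0.02 over all genes tested.

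**Figure D4:**
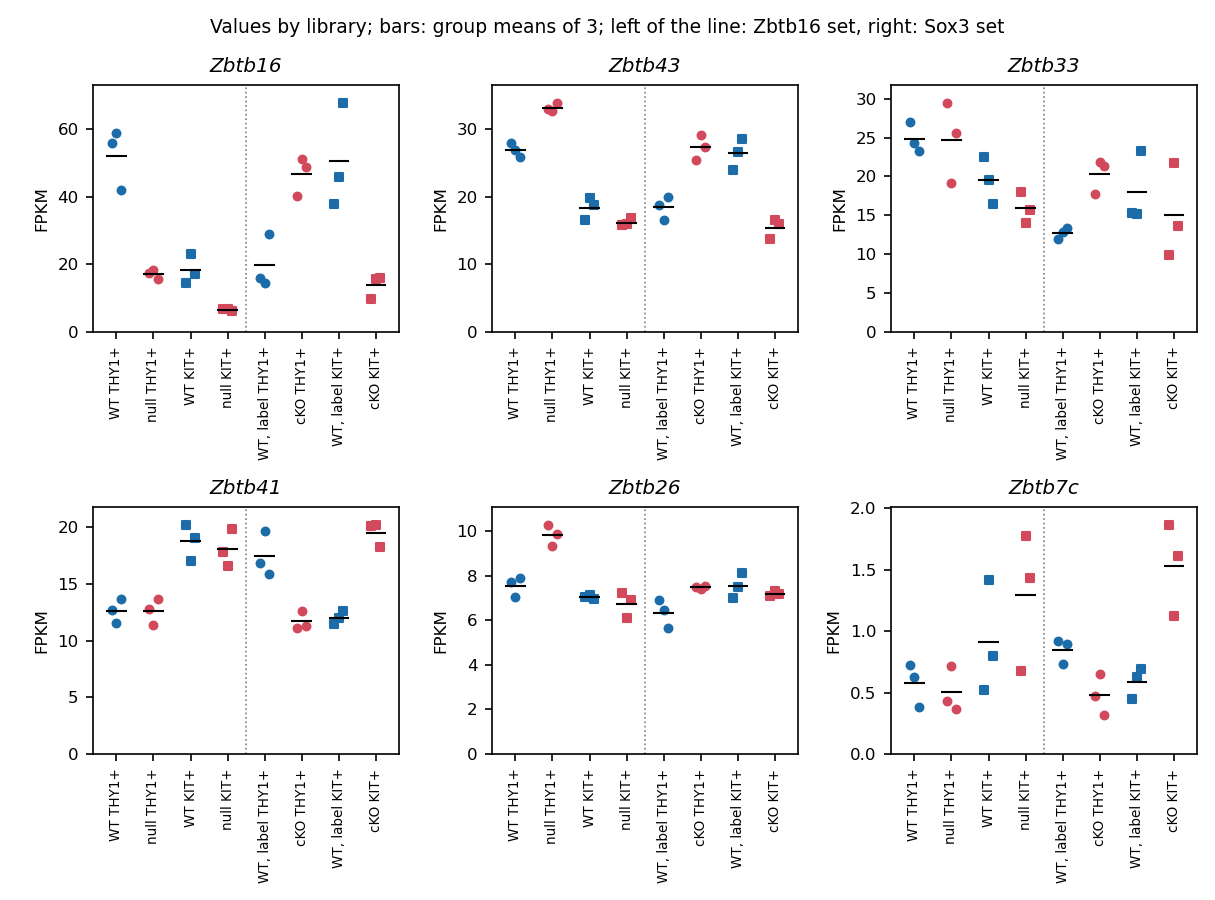
FPKM of 6 members in each library of the Zbtb16 experiment (left of the dotted line) and the Sox3 experiment (right), with bars at group means of 3. The WT libraries of the Sox3 experiment are placed by their labels, and those labelled KIT+ hold 37.8 to 67.8 FPKM of Zbtb16 against 14.5 to 28.9 in those labelled THY1+, the reverse of the other groups.

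The cKO of Sox3 was compared with WT as the mean over both fractions. Of the 40 members 4 were called, beside 10.3% of all genes: Zbtb20, Zbtb39 and Zbtb4 were higher (7.49% of all genes) and Zbtb32 was lower (2.83%). The adjusted p alone was passed by 8 members, 4 in each direction, beside 24.6% of all genes (13.1% and 11.6%), and the median log2 fold change was 0.06 over the members and 0.02 over all genes tested. Zbtb16 itself was not called (log2 fold change -0.28, with 15.9, 14.5 and 28.9 FPKM in WT labelled THY1+, 37.8, 45.9 and 67.8 in WT labelled KIT+ and 9.79 to 51.0 in the cKO).

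Zbtb32 was the most uniform. It was 11.5, 12.7 and 12.3 FPKM in cKO THY1+ and 8.44, 12.05 and 11.5 in cKO KIT+, against 17.6, 19.3 and 18.5 in WT labelled THY1+ and 15.1, 18.7 and 16.5 in WT labelled KIT+. All 6 cKO libraries lay below all 6 WT libraries, and Zbtb32 fell by 0.63 on the log2 scale (SE 0.095, adjusted p = 0.00291). Without replicate 1 of cKO KIT+ the fall was 0.55, under 1.5-fold, with the adjusted p still passed.

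Zbtb20, a repressor with roles in hippocampus, liver and B cells, was 4.81, 8.65 and 5.24 FPKM in cKO THY1+ and 4.90, 7.90 and 4.66 in cKO KIT+. In WT it was 2.72, 2.79 and 2.81 FPKM in libraries labelled THY1+ and 3.13, 3.90 and 4.85 in those labelled KIT+. The highest WT library exceeded 2 of the 6 cKO libraries, and replicate 2 was the highest in both cKO groups. Zbtb20 rose by a log2 value of 0.81 (SE 0.18, adjusted p = 0.00958).

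Zbtb39 was 1.70, 2.61 and 2.07 FPKM in cKO THY1+ and 1.86, 3.497 and 2.34 in cKO KIT+, against 1.33, 1.199 and 1.54 and then 1.16, 1.41 and 1.77 in WT labelled THY1+ and KIT+. It rose by a log2 value of 0.68 (SE 0.18, adjusted p = 0.0189), and its groups overlapped by 1 WT library. Zbtb4 was 2.60, 4.28 and 2.78 FPKM in cKO THY1+ and 3.32, 3.20 and 3.01 in cKO KIT+, against 2.06, 1.80 and 1.37 in WT labelled THY1+ and 1.95, 2.42 and 2.41 in WT labelled KIT+. All 6 cKO libraries exceeded all 6 WT libraries, with a rise of 0.66 (SE 0.15, adjusted p = 0.0104). Zbtb4 was under 1.5-fold without replicate 3 of WT labelled THY1+ (0.58) or replicate 2 of cKO THY1+ (0.55), and Zbtb39 without replicate 2 of cKO KIT+ (0.56). Exons of Zbtb39 and Zbtb20 overlap opposite-strand genes, as named above, so their values are less certain.

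The members called in the cKO were also followed in the Zbtb16 experiment, where none of the 4 was called between null and WT with all 12 libraries and no block. As given above, Zbtb4 was called lower in THY1+ with the block, and Zbtb32 lower in KIT+ without replicate 1 of null KIT+. Zbtb20 was 8.15, 6.99 and 5.65 FPKM in WT THY1+, 5.39, 5.65 and 4.42 in null THY1+, 4.35, 5.45 and 4.44 in WT KIT+ and 5.11, 6.74 and 5.39 in null KIT+. Zbtb39 was 2.43, 2.19 and 1.44 FPKM in WT THY1+, 1.51, 1.80 and 1.31 in null THY1+, 1.35, 2.38 and 1.196 in WT KIT+ and 1.85, 3.28 and 1.90 in null KIT+. Null and WT libraries of Zbtb39 overlapped in both fractions, and those of Zbtb20 in KIT+, whereas all null THY1+ libraries of Zbtb20 lay below WT (log2 fold change -0.41, limma adjusted p = 0.166). Zbtb4, given above for THY1+, was 1.69, 2.699 and 1.98 FPKM in WT KIT+ and 2.02, 3.69 and 2.56 in null KIT+. Zbtb32, given above for KIT+, was 13.8, 14.4 and 15.5 FPKM in WT THY1+ and 15.8, 15.6 and 14.8 in null THY1+. Both overlapped between null and WT in these fractions.

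With replicates 2 and 3 alone, which leaves out the 4 deeper libraries, 0 members were called by limma: Zbtb20 had a log2 fold change of 0.85 (adjusted p = 0.0676), Zbtb39 0.78 (0.0675) and Zbtb4 0.72 (0.0671), and Zbtb32 passed the adjusted p of 0.0402 at -0.58, just under 1.5-fold. Depth and the lower number of libraries cannot be told apart in this fit.

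Marker lists of other cells were compared in the same fit. Of 6 Leydig cell markers 4 were called higher in the cKO and 0 lower, of 8 Sertoli cell markers 3 and 0, of 6 endothelial markers 3 and 0, and of 8 peritubular and stromal markers 1 and 0. The summed Leydig markers were 2493 to 4941 FPKM in cKO KIT+ and 1239 to 2004 in WT labelled THY1+, the group that carries Kit. Of 8 T cell, 9 macrophage and 4 dendritic cell markers tested, 0 were called by limma, with 1, 3 and 2 at an unadjusted p under 0.05 and median log2 fold changes of -0.10, 0.07 and 0.24. Of the 21212 genes tested, 8155 had such an unadjusted p. Germ cell markers were called in the lower direction only: 1 of 6 markers of all germ cells (median -0.37), 2 of 7 of differentiating SPG (-0.33) and 2 of 13 of undifferentiated SPG (0.08). The part of these cell types in the values of Zbtb20, Zbtb39, Zbtb4 and Zbtb32 was not tested.

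Under 1.5-fold, Zbtb46 was higher in the cKO (log2 fold change 0.44, adjusted p = 0.0284), and Zbtb3 (-0.57, adjusted p = 0.00579), Zbtb48 (-0.34, adjusted p = 0.0086) and Zbtb18 (-0.27, adjusted p = 0.0498) were lower. Zbtb3 came closest to the limit, at 4.044, 3.30 and 3.99 FPKM in cKO THY1+ and 3.23, 2.49 and 3.48 in cKO KIT+. Its 6 WT libraries held 4.58 to 5.89 FPKM, all above the cKO.

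**Figure D5:**
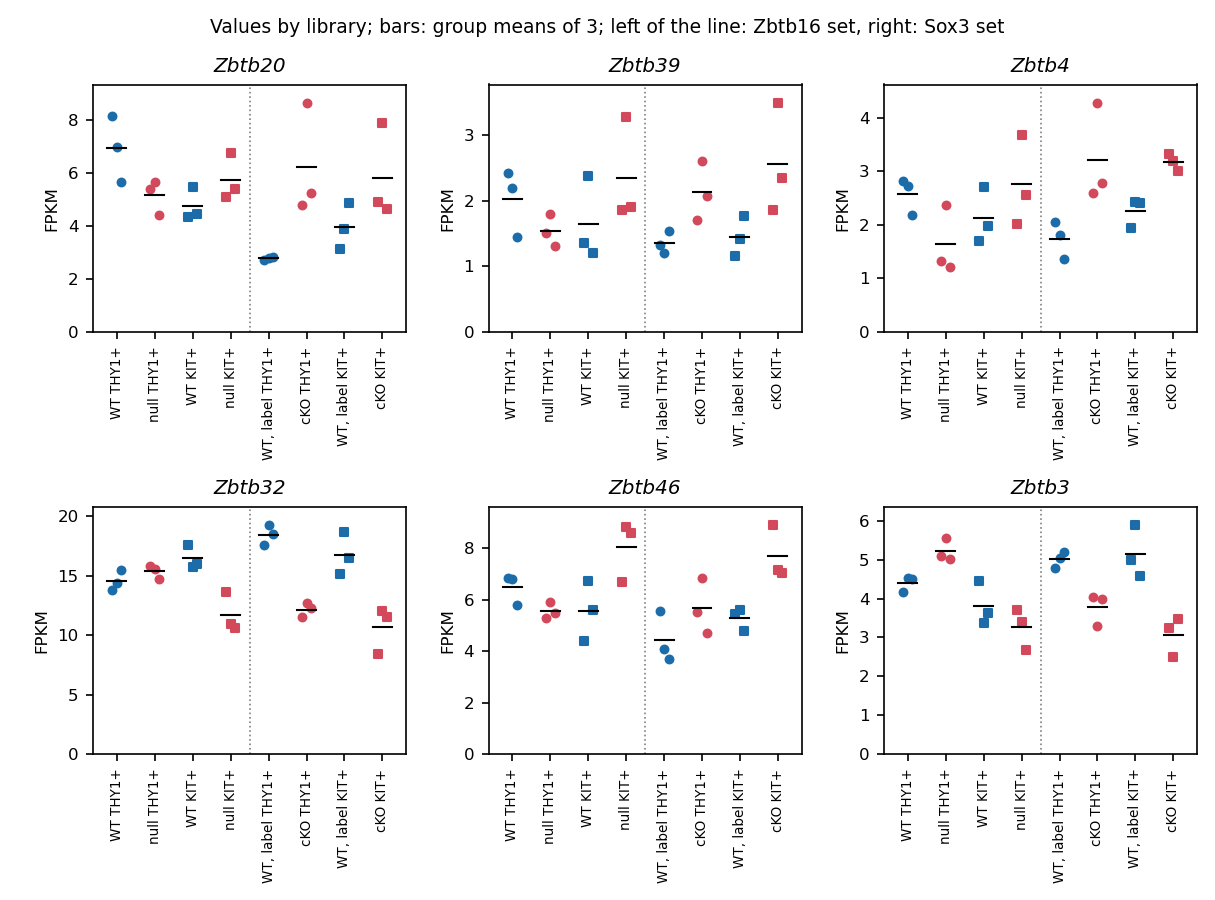
FPKM of 6 members that passed the adjusted p between Sox3 cKO and WT, by library, with the Zbtb16 experiment left of the dotted line and the Sox3 experiment right of it, and bars at group means of 3. Zbtb32 and Zbtb3 lie lower and Zbtb4 higher in all 6 cKO libraries, and Zbtb20, Zbtb39 and Zbtb46 overlap WT.

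Members were also read by role. Of the 4 linked to methylated DNA, Zbtb33, Zbtb4, Zbtb38 and Zbtb24, none was called in either null comparison without the block. The backgrounds were 3.98% of all genes in THY1+ and 0.259% in KIT+. With the block Zbtb4 was called lower in THY1+, as given above. Zbtb4 alone was called in the cKO against WT, beside 10.3% of all genes. Between fractions of the null, Zbtb33 was called lower in KIT+. Zbtb24, whose human counterpart is mutated in a syndrome of centromere instability, was steady, with log2 fold changes of -0.02 and 0.10 in null THY1+ and KIT+, 0.00051 in the cKO and 0.02 to 0.27 between fractions. Zbtb38 and Zbtb24 had means of 5.65 and 8.75 FPKM in WT THY1+.

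Of the 8 members known from lymphoid and myeloid cells, Zbtb7a, Zbtb7b, Zbtb1, Zbtb17, Zbtb25, Zbtb32, Zbtb46 and Zbtb20, none was called with the null in either fraction with all libraries. The backgrounds were 3.98% of all genes in THY1+ and 0.259% in KIT+. Zbtb7b in THY1+ and Zbtb32 in KIT+ were called lower when a library was left out, as given above. In the cKO Zbtb20 was called higher and Zbtb32 lower, beside 10.3% of all genes. Their WT THY1+ means ran from 1.81 FPKM for Zbtb7a to 14.5 for Zbtb32, with Zbtb7b at 1.82. Zbtb1, which lymphocyte development needs, changed by -0.19 to 0.08 on the log2 scale in the 7 comparisons other than the interaction. Zbtb25, its neighbour on chromosome 12 in the opposite orientation, was lower in KIT+ past the adjusted p in the null (-0.46) and in the cKO (-0.32).

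The telomere binders Zbtb48, or TZAP, and Zbtb10 had WT THY1+ means of 7.65 and 8.30 FPKM, and neither was called in any comparison. Of the members described in nerve and muscle, Zbtb18, a neural repressor also named RP58, had a mean of 11.6 FPKM in WT THY1+, and Zbtb14 had 5.21. Neither was called in any comparison, and the log2 fold changes of Zbtb14 lay between -0.10 and 0.09. Zbtb42 was 0.594 to 0.782 FPKM in WT THY1+ and 0.921 to 1.22 in WT KIT+. Zbtb45, with 1.31 to 1.77 FPKM in WT THY1+, was not called. The lowest estimated number of reads behind any member value was 17, for Zbtb7c in the Sox3 experiment, followed by 32 for Zbtb42, so the values of these genes are the least precise.

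The remaining members, Zbtb2, Zbtb5, Zbtb6, Zbtb8a, Zbtb11 and Zbtb49, were called in no comparison. Their means in WT THY1+ ran from 3.26 FPKM for Zbtb49 to 14.4 for Zbtb11. Their log2 fold changes lay between -0.40, for Zbtb2 between fractions in the null, the only one of them past the adjusted p (0.0484), and 0.21, for Zbtb2 in null THY1+.

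BTB zinc finger genes with other names were described beside the family. Of 8, Bcl6, Bcl6b, Hic1, Hic2, Patz1, Gzf1, Mynn and Zfp131, none was called by limma in either null comparison, with 0 and 3 at an unadjusted p under 0.05 in THY1+ and KIT+. Of the 22374 genes tested, 5325 and 3863 had such an unadjusted p. Bcl6b, a GDNF-responsive gene of stem cell maintenance, fell from 13.9 ± 1.58 FPKM (SD, n = 3) in WT THY1+ to 3.15 ± 1.18 in WT KIT+, by 2.17 on the log2 scale (adjusted p = 8.3e-05). It fell by 2.02 in the null and 1.70 in the cKO, and all 3 passed as calls. Bcl6b is also in the list of uSPG markers used beside the fractions. Bcl6 was called lower in KIT+ in WT (-0.97) and in the null (-0.82). Gzf1 was called higher in KIT+ in the null (0.71) and in the cKO (0.85), and Hic1 was called higher in the cKO against WT (0.91).

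Corepressors and partners of BTB proteins were listed as Ncor1, Sin3a, Hdac1, Hdac3, Bcor, Bmi1 and Cul3. None of these 7 was called by limma in either null comparison, with 2 and 1 at an unadjusted p under 0.05, although Ncor1 was lower in null THY1+ past the adjusted p (-0.31, adjusted p = 0.0442). In the 3 fraction comparisons 0 of 7 were called by limma, with 2, 4 and 3 at an unadjusted p under 0.05 in WT, null and cKO. Such an unadjusted p was found for 8944 and 10686 of 22374 genes in WT and null, and for 8687 of 21212 in the cKO. Hdac3 was higher in KIT+ past the adjusted p in all 3, at 0.41, 0.43 and 0.43. In the cKO against WT, 1 of the 7 was called, beside 10.3% of all genes. This was Bcor, a corepressor of BCL6, which was higher (0.63, limma adjusted p = 0.0178). Under 1.5-fold, Ncor1 was higher (0.35, adjusted p = 0.0226). Bmi1 (-0.48, adjusted p = 0.00538) and Hdac3 (-0.24, adjusted p = 0.0353) were lower. The adjusted p was thus passed by 2 in each direction, beside 24.6% of all genes.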

How the data were processed

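RNA-seq libraries were prepared by the authors from ribosome-depleted total RNA with a stranded kit and sequenced as single reads. They aligned the reads to mm10 with Novoalign, keeping several positions for a read that aligned more than once, and computed FPKM with USeq. The deposited values are FPKM, in 1 table per experiment with 12 libraries each. The authors tested expression with DESeq2, which needs counts, so limma 3.58.1 (R 4.3.3) was used here on log2(FPKM + 0.1), with a mean of at least 0.1 FPKM, 4 group means per table, a trended and robust variance and the study's thresholds (adjusted p of at most 0.05, 1.5-fold). Sums over members were tested by exact permutation over libraries. Libraries were grouped by their labels alone, with 3 per group. The authors' FPKM keep no read counts, so depth was estimated from the steps between low values.

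The members and the lists of roles, partners and cell type markers were chosen with earlier results of these data known. By the rule, every library value is given for Zbtb16, for members called with a genotype, and for the 5 highest in WT THY1+. The rule also asked for members called in the same direction in all 3 fraction comparisons, which was Zbtb16 alone. Other members with library values were named after their values were seen. All 40 members are accounted for. A gene of the partner list is not reported here.

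Replicate numbers come from the labels. Deviations from group means of same-numbered libraries correlated at 0.133 to 0.475 between null and WT THY1+, 0.362 to 0.520 between null and WT KIT+, and 0.315 to 0.519 between null KIT+ and null THY1+, so for these a replicate block was also fitted. Between the fractions of WT and of cKO mice, and between cKO and WT libraries with the same fraction label, at least 1 correlation was under 0.1. P-values measure the spread between pools of mice. Alternatives were other pseudocounts and filters, median scaling, the block, fits on the compared groups alone and leaving out each library.

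Promoter windows came from RefSeq (GRCm38.p6) and gene positions from GENCODE M21. Counts of motifs used Python 3.11.15. Neighbouring or overlapping genes were found from exons.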

Additional observations from a re-analysis of the deposited data

How the results depend on the processing

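Zbtb16 kept its direction and its call in both null comparisons, in their average and in the 3 fraction comparisons under all alternatives run, except that in KIT+ with only the groups of the comparison it had a log2 fold change of -1.45 and an adjusted p of 0.114, so that 0 members were called there. Its interaction value, not called, turned sign, at -0.00999 with libraries scaled to the same median, and ran from -0.0113 (without replicate 1 of WT KIT+) to 0.32 when 1 library was left out. That scaling shifted the interaction of all genes by -0.15 on the log2 scale, and left 11 members, instead of 19, with an interval within 1.5-fold. The sum of the paralogs, when replaced by the mean of log2(FPKM + 0.1), turned sign as well, to -0.0365 in THY1+ and 0.0218 in KIT+.

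Leaving out 1 library, 1 to 2 members were called between null and WT in THY1+ and 1 to 2 in KIT+, 0 to 1 in the interaction, 1 to 4 between fractions in WT, 3 to 9 in the null and 4 to 7 in the cKO. The replicate block gave 2 calls in THY1+, and in the interaction, whose groups are not paired by the check, it gave 3 (Zbtb4, Zbtb20 and Zbtb46). In the other comparisons that the check does not pair it changed no call of a member. In these, 6 of 6 libraries of the cKO fractions correlated best with their own number, 5 of 6 of the WT fractions, and 3 to 6 of 6 in the pairs of groups behind the cKO and WT comparison, which is a hint from the data and not from the design. Median scaling gave 4 calls between fractions in WT, and a pseudocount of 1 gave 3 in the null and 2 in the cKO against WT. Replicates 2 and 3 of the Sox3 experiment alone gave 0 in the cKO against WT. Where no library or construction is named, the cause was not tested. Single members called in the report lost their call in 29 alternatives and kept their direction in all. With 3 libraries per group, changes of the low members Zbtb7c and Zbtb42 are measured least well.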
